A study of Macaca fascicularis and Macaca mulatta and Papio anubis with 20 samples.

Results

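CLEC2L, OTOS, SNCB, HOPX, SMPX and TLCD3B are 6 genes that led the PVALB-rich spots of primate dorsal root ganglia, where the cell bodies of sensory neurons lie next to the spinal cord. They were picked by symbol for that position, out of the 22000 features counted in Macaca fascicularis, so their rise with PVALB is the reason they are here and is described below without a test. All 6 symbols were found in each of the 3 feature sets used.

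Large sensory neurons with thick myelinated axons carry touch and limb position, and PVALB, which encodes the calcium-binding protein parvalbumin, is a standard marker of the position-sensing ones (proprioceptors). SCN11A encodes the sodium channel NaV1.9 and marks small neurons that signal pain and itch (nociceptors). The 6 genes are less often named with either class. SNCB encodes beta-synuclein, a presynaptic protein, and CLEC2L a membrane protein of the C-type lectin family. HOPX is a small homeodomain protein that does not bind DNA, and TLCD3B belongs to a family related to the ceramide synthases. OTOS, otospiralin, is a small secreted protein known from the inner ear, and SMPX is a small cytoskeletal protein known from striated muscle.

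The ganglia were bought fresh-frozen, cut at 10 µm with 100 µm between sections, and measured by Visium, which counts transcripts as unique molecular identifiers (UMIs) in barcoded spots on a slide. Each spot pools RNA from the cells, or parts of cells, above it, so fewer cells of a type and less RNA per cell cannot be told apart. Of the 20 sections, 16 were labelled M. fascicularis, in 4 title codes of 4 sections each (female batch 1, male batch 1, female batch 2 and male batch 2), 2 were labelled M. mulatta and 2 P. anubis, all of these last 4 in batch 2 with no sex given. No age, treatment or genotype was given for any group. Each title code was treated as 1 specimen, although the labels do not say whether codes are separate animals, so p-values measure only the spread between these codes. Feature identifiers and file codes of the sections labelled M. mulatta are those of P. anubis, and the reverse, so values given under one of these labels may belong to the other species.

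The M. fascicularis sections held between 1136433 and 7073134 UMIs, with a median of 398 to 5145 UMIs per spot under tissue. One section, the third of the male batch 2 code, entered through its summed counts alone, which left 15 sections with 21897 tissue spots. Under the M. mulatta label the totals were 190376 and 264661 UMIs, fewer than in any other section. Neuronal markers were present throughout: the 8 measured genes of a 10-gene pan-neuronal list summed to means of 7621 to 10044 CPM (the usual scaling of a gene's UMIs to the section's total) over the 4 title codes. The 7 measured genes of a 13-gene skeletal muscle list, set beside SMPX, summed to means of 15.9 to 27.8 CPM. The 6 bone and cartilage markers summed to means of 6.73 to 10.4 CPM.

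Every one of the 6 genes was detected in every M. fascicularis section. OTOS was at 62.7, 83.1, 74.3 and 60.6 CPM in sections 1 to 4 of the female batch 1 code and at 45.6, 91.7, 50.6 and 95.01 CPM in the male batch 1 code. It was at 141, 251, 340 and 199 CPM in the female batch 2 code and at 101, 92.4, 110 and 194 CPM in the male batch 2 code. The female batch 2 sections all lay above every batch 1 section, while the lowest male batch 2 section fell within the batch 1 range. TLCD3B was at 69.0, 95.01, 174 and 150 CPM in female batch 1, 64.9, 109, 107 and 157 CPM in male batch 1, 149, 254, 267 and 199 CPM in female batch 2, and 55.3, 87.2, 65.7 and 119 CPM in male batch 2. Its female batch 2 code again held the highest sections, but its lowest section lay within the range of female batch 1.

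The remaining genes overlapped between codes. CLEC2L had means of 195 ± 37.0, 205 ± 82.3, 268 ± 67.2 and 159 ± 77.7 CPM (SD, n = 4 sections) in female batch 1, male batch 1, female batch 2 and male batch 2. In the same order SNCB had means of 133 ± 63.8, 133 ± 61.2, 197 ± 43.6 and 98.3 ± 27.6 CPM (SD, n = 4 sections). HOPX had means of 64.2 ± 24.5, 69.2 ± 30.0, 110 ± 38.0 and 48.0 ± 9.22 CPM, and SMPX of 18.6 ± 9.23, 20.7 ± 12.6, 37.4 ± 11.4 and 19.4 ± 7.82 CPM (SD, n = 4 sections each). For all 6 genes the female batch 2 code had the highest mean, and its sections overlapped those of at least 1 other code. The genes were picked from PVALB-rich spots, which came mostly from batch 2, so this order is not wholly independent of the choice. Between all sections of batch 1 and all of batch 2 each of the 6 genes overlapped, where 7.58% of genes did not, and between the sexes each overlapped too, where 0.0516% of genes did not.

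Within both batch 1 codes, sections 3 and 4 differed from sections 1 and 2. PVALB averaged 218 CPM in sections 1 and 2 and 437 CPM in sections 3 and 4 of the female code, and 256 and 583 CPM in the male code. SNCB moved the same way, from 84.4 to 182 CPM in the female code and from 90.6 to 176 CPM in the male code, as did CLEC2L, HOPX, SMPX and TLCD3B. OTOS did not: it averaged 72.9 and 67.4 CPM in the female code and 68.6 and 72.8 CPM in the male code. SCN11A ran the other way, from 525 to 233 CPM in the female code and from 646 to 334 CPM in the male code. In the female batch 2 code PVALB, SNCB and SCN11A moved as in batch 1. PVALB averaged 408 and 560 CPM there (736 and 383 CPM in sections 3 and 4), SNCB 180 and 214 CPM and SCN11A 192 and 140 CPM. OTOS rose in that code, from 196 to 269 CPM. The same split ran otherwise in the male batch 2 code, where PVALB averaged 243 CPM in sections 1 and 2 and 200.3 CPM in sections 3 and 4. There SNCB went from 86.1 to 110.4 CPM, TLCD3B from 71.2 to 92.2 CPM, CLEC2L from 117 to 201 CPM and OTOS from 96.5 to 152 CPM. These pairs were noticed in the data and hold 2 sections each, so they were not tested.

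**Figure D1:**
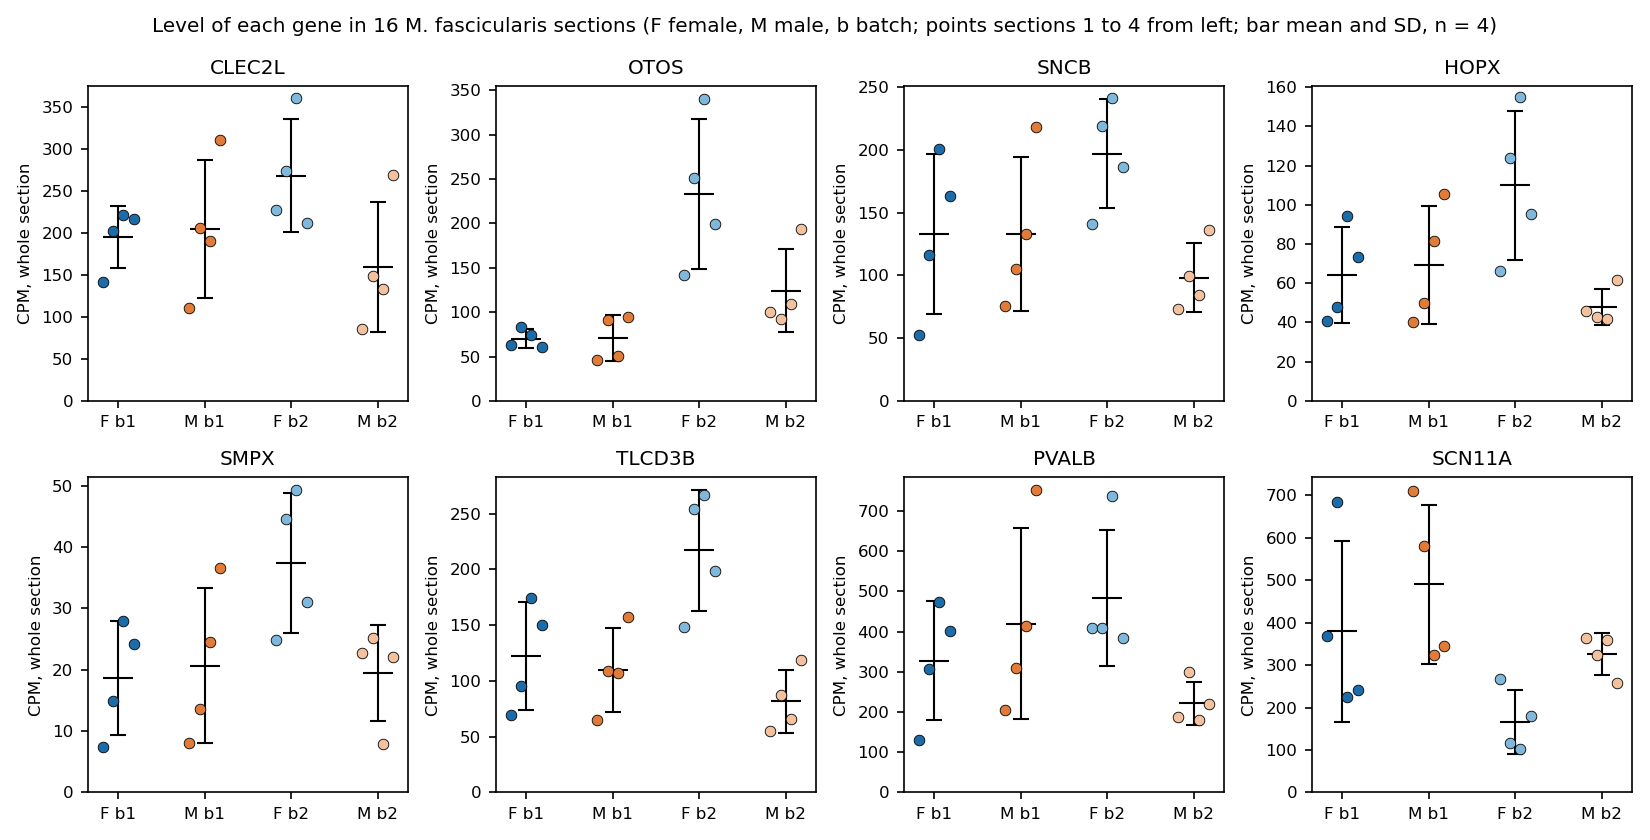
CPM of the 6 genes, PVALB and SCN11A (vertical axes, linear from 0) in each of the 16 M. fascicularis sections, by title code; points are sections and black bars are the mean and SD of 4 sections. OTOS lies at 45.6 to 95.01 CPM in the batch 1 sections and reaches 340 CPM in the female batch 2 code.

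Set against PVALB itself, the ratio of SNCB to PVALB had a median of 0.384 over the 16 sections (range 0.290 to 0.618), and that of HOPX a median of 0.198 (range 0.140 to 0.314). The ratio of OTOS to PVALB ranged more widely, from 0.122 to 0.876. Its mean was 0.265 ± 0.154 and 0.192 ± 0.0841 in the female and male batch 1 codes against 0.486 ± 0.112 and 0.583 ± 0.234 in the batch 2 codes (SD, n = 4 sections each).

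Batch and sex were compared on UMIs summed per title code, with edgeR's quasi-likelihood test and Benjamini-Hochberg adjustment over 12650 genes. PVALB-rich spots came mostly from batch 2 in an earlier analysis of these data. The batch comparison is therefore not wholly independent of how the genes were picked. None of the 6 genes passed an adjusted p of 0.05 for batch, where 2.88% of all genes did (1.26% higher and 1.61% lower in batch 2; 364 genes, and 2389 at an unadjusted p under 0.05). OTOS was closest, with a log2 difference of 1.25 ± 0.32 (SE) in batch 2 over batch 1 and an edgeR adjusted p of 0.0879. Its difference had the same direction in all 24 alternative settings, and its adjusted p ranged from 0.000114 to 0.136 and was under 0.05 in 7 of them, including 3 that each left out a single section (section 1 or 4 of female batch 1, or section 1 of female batch 2). The other 5 genes lay between -0.06 and 0.40 on the log2 scale, with edgeR adjusted p from 0.566 to 0.942. The median over the 6 genes was 0.10, beside -0.01 over all genes.

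Other cell types differed between the batches where these genes did not pass. In the same edgeR fit 6 of 7 tested fibroblast markers were lower in batch 2, for example COL1A2 with a log2 difference of -4.90 ± 0.27 (SE, edgeR adjusted p = 0.000194), and 2 of 9 myelinating Schwann markers were lower, MAG among them. Of 18 large-fibre sensory genes 2 were lower, ETV1 and SPP1, and of 17 nociceptor genes 1 was higher, SCN10A. Within M. fascicularis the Space Ranger version also went with the batch, and its part in these differences cannot be told apart from that of the batch.

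All 6 genes had lower estimates in males, with log2 differences from -0.49 (SMPX) to -0.96 (TLCD3B), and none passed. The batches differed in this. In batch 2 the male mean over sections was lower for all 6 genes. In batch 1 the male and female means were 205 and 195 CPM for CLEC2L, 70.7 and 70.2 for OTOS, and 69.2 and 64.2 for HOPX. They were 20.7 and 18.6 CPM for SMPX, 133 and 133 for SNCB, and 110 and 122 for TLCD3B. PVALB was at 420 and 327 CPM there. The edgeR fit called 0 of 12650 genes for sex (0%, with 169 at an unadjusted p under 0.05), and DESeq2 also called 0 (179 at an unadjusted p under 0.05). Over the alternatives tried, 0 of the 6 genes were called for sex. TLCD3B had an unadjusted p of 0.0246 and an edgeR adjusted p of 0.998. The median over the 6 genes was -0.61, beside 0.01 over all genes. PVALB was likewise lower in males (-0.48 ± 0.37, SE, edgeR adjusted p = 0.998) and SCN11A higher (0.64 ± 0.24, SE, edgeR adjusted p = 0.998), and each sex had 2 title codes.

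The spots richest in neuronal RNA were used to set the genes against PVALB and SCN11A. In each section these were the top 25% of tissue spots with at least 200 UMIs by share of the pan-neuronal list, 4648 spots in all. They were split into 1089 spots with PVALB UMIs only, 1184 with both, 857 with SCN11A UMIs only and 1518 with neither. CLEC2L was at 445 ± 150 CPM in PVALB-only spots, 277 ± 61.3 CPM in spots with both, 91.4 ± 10.4 CPM in SCN11A-only spots and 148 ± 13.04 CPM in spots with neither (SD, n = 4 title codes). The other genes had the same order of means: OTOS went through 254 ± 161, 156 ± 58.3, 54.1 ± 16.3 and 111 ± 54.7 CPM, and SNCB through 327 ± 80.5, 203 ± 19.998, 74.3 ± 10.3 and 126 ± 50.1 CPM (SD, n = 4 title codes).

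HOPX, SMPX and TLCD3B followed suit. HOPX was at 145 ± 60.0, 88.3 ± 17.9, 31.6 ± 3.28 and 65.6 ± 29.8 CPM and SMPX at 56.1 ± 17.7, 34.8 ± 5.09, 13.3 ± 8.19 and 26.2 ± 14.3 CPM (SD, n = 4 title codes). TLCD3B was at 278 ± 102, 174 ± 54.2, 80.8 ± 11.7 and 129 ± 66.4 CPM (SD, n = 4 title codes). For each of the 6 genes the mean was lowest where SCN11A was found without PVALB.

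**Figure D2:**
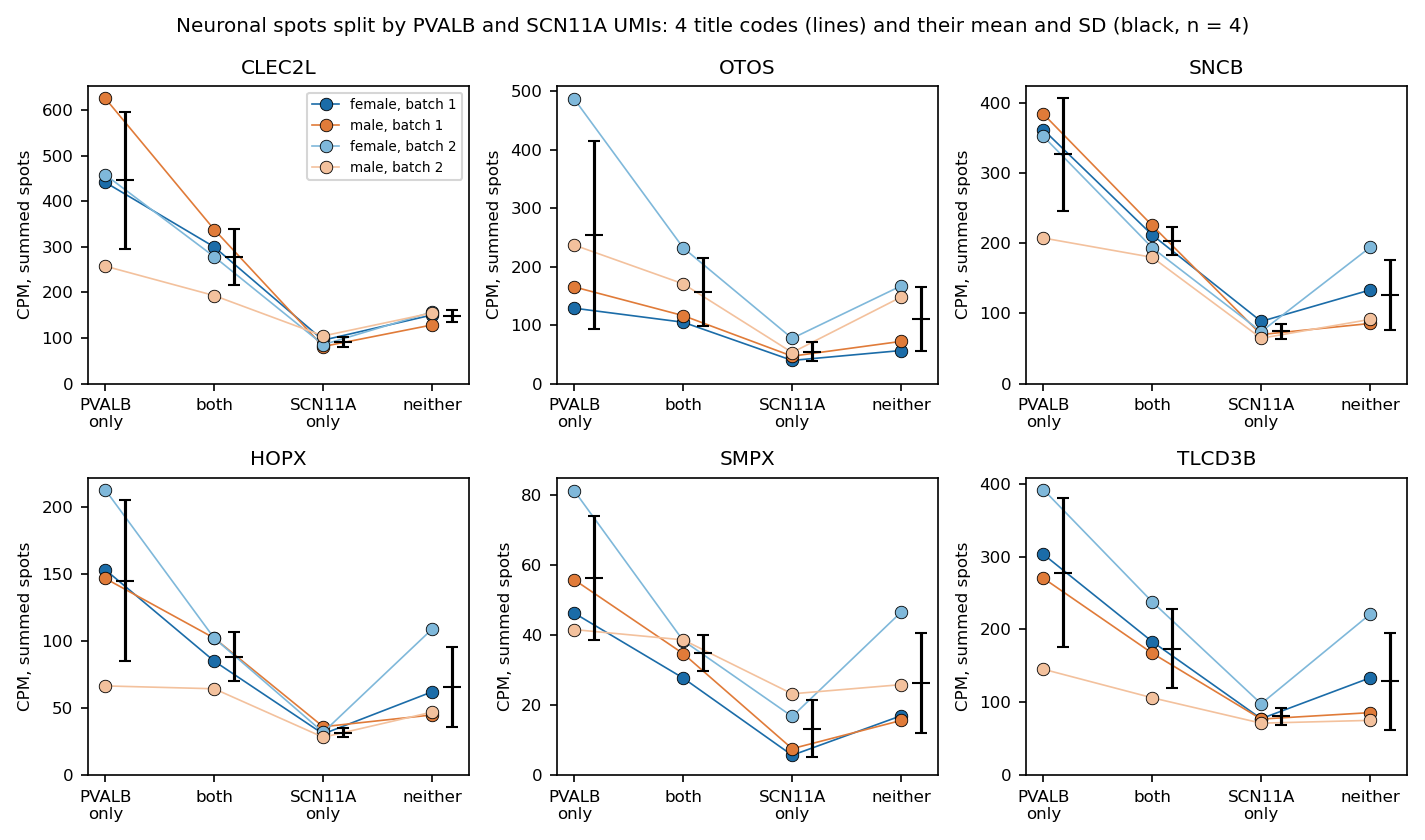
CPM of each gene (vertical axes, linear from 0) in neuronal spots with PVALB UMIs only, with both, with SCN11A UMIs only and with neither; coloured lines are the 4 title codes, and black bars are their mean and SD. CLEC2L falls from 445 to 91.4 CPM between PVALB-only and SCN11A-only spots.

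The contrast that chose the genes is given for its size only. Between PVALB-positive and PVALB-free neuronal spots the mean log2 ratio over 4 title codes was 1.55 ± 0.55 for CLEC2L, 1.39 ± 0.34 for SNCB, 1.35 ± 0.64 for SMPX, 1.32 ± 0.19 for OTOS, 1.24 ± 0.31 for HOPX and 1.06 ± 0.24 for TLCD3B (SD, n = 4). Each ratio was positive in 4 of 4 title codes. In a fit over 10101 genes CLEC2L ranked 16 by size of increase, and TLCD3B, the lowest of the 6, ranked 68. That fit called 9.68% of all genes higher, all 6 genes among them, and 6.93% lower, and nothing is read from it because the choice of genes used the same contrast.

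Levels were also compared between SCN11A-positive and SCN11A-free spots among neuronal spots with 0 PVALB UMIs. These spots formed the low side of the contrast that chose the genes, and the classes differ in depth, so the members' values are descriptions and no test is drawn from them. CLEC2L was at 95.1, 81.1, 85.1 and 104 CPM in SCN11A-positive spots and at 150, 128, 157 and 155 CPM in SCN11A-free spots of female batch 1, male batch 1, female batch 2 and male batch 2. The 2 classes of spots did not overlap across codes for this gene. Overlap was not counted over all genes here, so nothing is read from it. HOPX was at 30.6, 36.0, 31.8 and 28.1 CPM in the positive spots and at 62.0, 44.8, 109 and 46.9 CPM in the free ones, again without overlap. TLCD3B was at 77.3, 76.8, 97.8 and 71.2 CPM against 133, 85.7, 221 and 75.0 CPM, and its classes overlapped between codes, with the male batch 2 code nearly level. OTOS, SNCB and SMPX overlapped between codes as well. SNCB, for example, was at 88.6 CPM in SCN11A-positive spots of female batch 1 and at 85.7 CPM in SCN11A-free spots of male batch 1.

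In edgeR's fit with the title code as a term the log2 differences were -0.72 ± 0.13 for CLEC2L, -0.98 ± 0.15 for OTOS, -0.80 ± 0.15 for SNCB, -1.10 ± 0.19 for HOPX, -1.14 ± 0.28 for SMPX and -0.70 ± 0.15 for TLCD3B (SE). The median over the 6 genes was -0.89, beside -0.01 over all genes. That fit called 3.6% of the 8490 genes tested lower, all 6 members among them, 2.79% higher and 6.4% in either direction, and nothing is read from the members' count because the genes were chosen to follow PVALB. Within single sections CLEC2L was higher in SCN11A-positive spots in 0 of 15, HOPX in 2, OTOS, SNCB and TLCD3B in 3 each and SMPX in 4.

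In the same fit the nociceptor list was mostly higher and the large-fibre list was mixed (median log2 differences of 0.64 and -0.07). Of 12 nociceptor genes other than SCN11A, 8 were higher and 0 lower, led by SYNPR (1.36 ± 0.14, SE, edgeR adjusted p = 3.9e-10), a synaptic vesicle protein, and CALCA (0.71 ± 0.09, SE, edgeR adjusted p = 2.3e-07), the precursor of the neuropeptide CGRP. Of 10 large-fibre genes, NEFH, NEFL and SPP1 were lower and LDB2 and RET higher. Of 9 genes related by family to the 6 genes or to PVALB, 2 were higher, SNCG and CERS6, and 2 were lower, among them CALB2, a calcium-binding relative of PVALB.

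Depth and non-neuronal RNA moved with this split. The SCN11A-only spots had medians of 2169 to 7004 UMIs and the spots with neither gene 629 to 1158 UMIs over the 4 codes. Among markers of other cell types, 6 of 8 myelinating Schwann genes, 6 of 7 fibroblast genes and 2 of 3 smooth muscle genes were also lower in the SCN11A-positive spots, for example DCN (-1.27 ± 0.10, log2 and SE, edgeR adjusted p = 4.5e-14). The Schwann list summed to 1391 to 2630 CPM in SCN11A-only spots and 1606 to 5444 CPM in spots with neither, and the fibroblast list to 119 to 878 and 211 to 2153 CPM. Their part in the members' values was not tested.

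With every spot thinned to 1000 UMIs, and the classes set again from the thinned counts, the log2 differences were -0.49 for CLEC2L, -0.97 for OTOS, -0.94 for SNCB, -1.04 for HOPX and -0.88 for TLCD3B, and SMPX was too sparse to fit. A thinned spot without PVALB may have held it at full depth. How many of the 6 genes passed the threshold changed between such settings, and is given in the closing section after the counts over all genes. Nothing is read from it, because these spots took part in choosing the genes.

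In the thinned spots, classed by their thinned counts, the share holding a UMI of each gene could be compared at equal depth. CLEC2L was found in 31.5 ± 9.99% of PVALB-only spots, 9.66 ± 2.13% of SCN11A-only spots and 12.97 ± 0.18% of spots with neither (SD, n = 4 title codes). The lowest 25% of spots by neuronal share held it in 10.99 ± 3.73%. For all 6 genes the mean share in SCN11A-only spots was below that of these low-neuronal spots, so it is not read as expression. The low-neuronal spots were not selected for 0 PVALB UMIs, as SCN11A-only spots were, and the order of these shares is not read as a difference. OTOS stood at 19.6 ± 11.2% in PVALB-only spots, 4.46 ± 1.25% in SCN11A-only spots and 8.04 ± 4.44% in the low-neuronal spots, and SNCB at 27.3 ± 5.34%, 5.96 ± 1.61% and 9.04 ± 3.41% (SD, n = 4 title codes). SMPX was sparse everywhere, at 4.82 ± 2.57%, 0.61 ± 0.72% and 1.37 ± 0.63%.

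Spots holding more than 1 of the genes were counted at equal depth. In the female batch 2 code 47.9% of the thinned PVALB-positive spots held at least 2 of the 6 genes, against 17.03% of PVALB-free spots. The other codes had 26.6% against 9.31% (female batch 1), 27.0% against 8.49% (male batch 1) and 18.9% against 7.57% (male batch 2). At least 3 of the genes were found in 6.76% to 20.4% of PVALB-positive spots, and 22.3% to 41.9% held none of the 6 at this depth. Each gene was chosen for its level in PVALB-rich spots, so nothing is read from the gap between the classes. No other set of genes was counted this way.

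Around PVALB-positive spots the genes fell off within 1 spot. Over all tissue spots with at least 200 UMIs, CLEC2L was at 295 ± 54.9 CPM in PVALB-positive spots, 97.0 ± 9.80 CPM in spots next to one, 76.7 ± 16.8 CPM at a distance of 2 and 86.3 ± 20.4 CPM farther away (SD, n = 4 title codes). SNCB went from 206 ± 42.2 to 75.6 ± 19.3, 55.7 ± 12.5 and 54.4 ± 31.3 CPM. Around SCN11A-positive spots the first step ran the other way, with CLEC2L at 173 ± 38.2 CPM in the positive spots and 271 ± 80.7 CPM next to them, and SNCB at 123 ± 26.7 and 190 ± 59.4 CPM (SD, n = 4 title codes). At a distance of 2 and farther away CLEC2L was at 260 ± 66.1 and 178 ± 86.4 CPM, and SNCB at 181 ± 84.1 and 120 ± 92.4 CPM. PVALB itself went from 314 ± 94.8 to 524 ± 179 CPM over the first step away from SCN11A. The pan-neuronal list changed less over the first step, from 9322 ± 1162 to 8128 ± 847 CPM around PVALB and from 8990 ± 991 to 8629 ± 1181 CPM around SCN11A. Spots at a distance of 1 or more hold 0 UMIs of the reference gene by construction. The first step away from PVALB thus repeats the contrast that chose the genes, and no spatial fall-off is read from it.

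**Figure D3:**
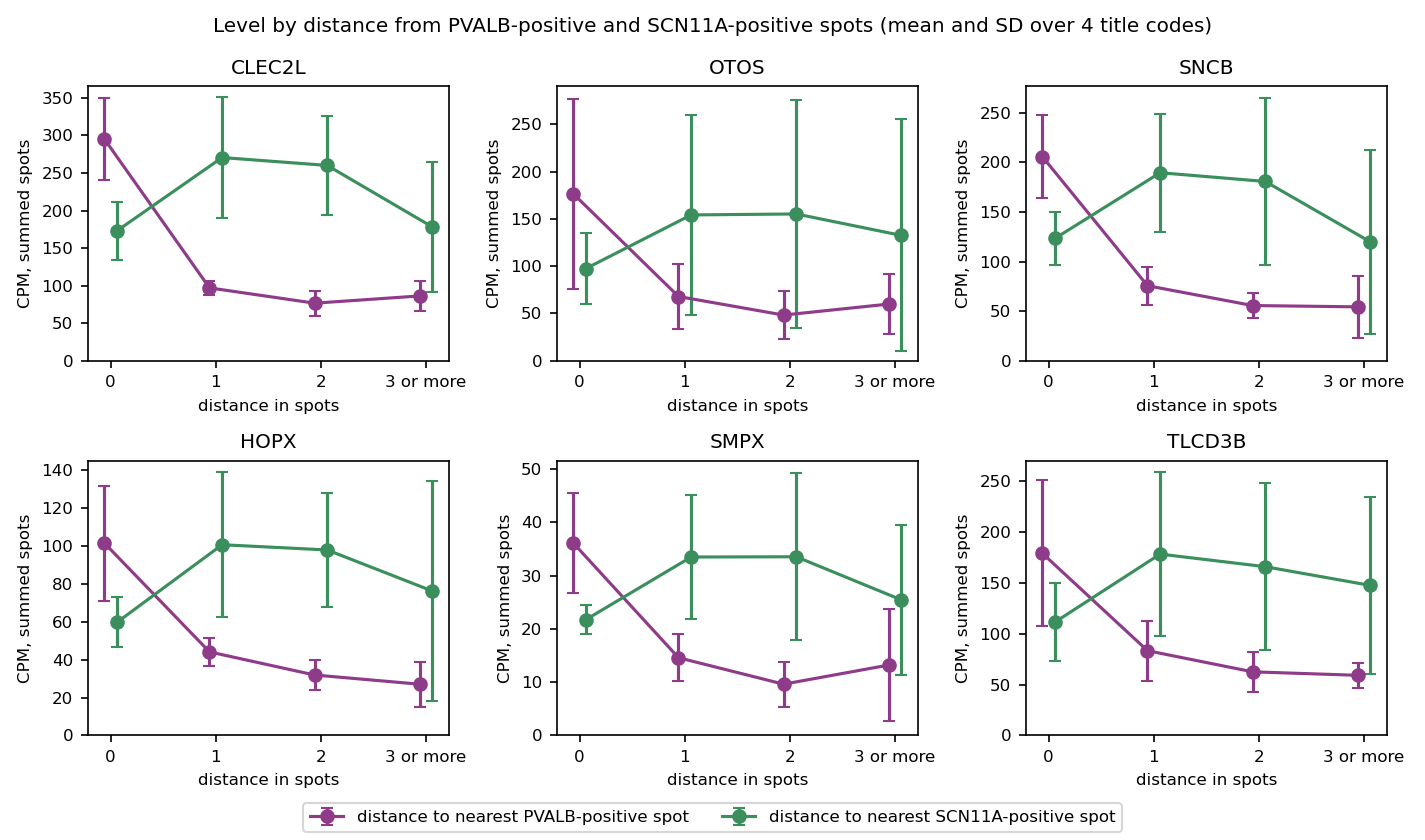
CPM of each gene (vertical axes, linear from 0) by distance in spots from the nearest PVALB-positive spot (purple) or SCN11A-positive spot (green); points and bars are the mean and SD of 4 title codes. CLEC2L drops from 295 to 97.0 CPM 1 spot away from PVALB and is higher next to SCN11A-positive spots than in them. Spots away from PVALB hold 0 PVALB UMIs, so that drop repeats the contrast that chose the genes.

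Across the spots of a section, each gene's correlation with PVALB was positive in nearly all sections. These correlations are descriptions: the spots of a section share a library, differ in depth and hold sparse counts. A positive r with PVALB also follows from how the genes were picked. The median Pearson r with PVALB over 15 sections was 0.39 for CLEC2L (range 0.14 to 0.57), 0.35 for SNCB (0.12 to 0.54), 0.31 for TLCD3B (0.09 to 0.44), 0.27 for HOPX (0.07 to 0.35), 0.24 for OTOS (0.15 to 0.44) and 0.18 for SMPX (-0.0046 to 0.30). With SCN11A the medians were 0.010 to 0.018, below the medians of 0.033 to 0.064 that the same genes had with all 5451 genes compared. In spots of at least 1000 UMIs all 6 medians with SCN11A were negative, from -0.092 (CLEC2L) to -0.024 (SMPX).

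**Figure D4:**
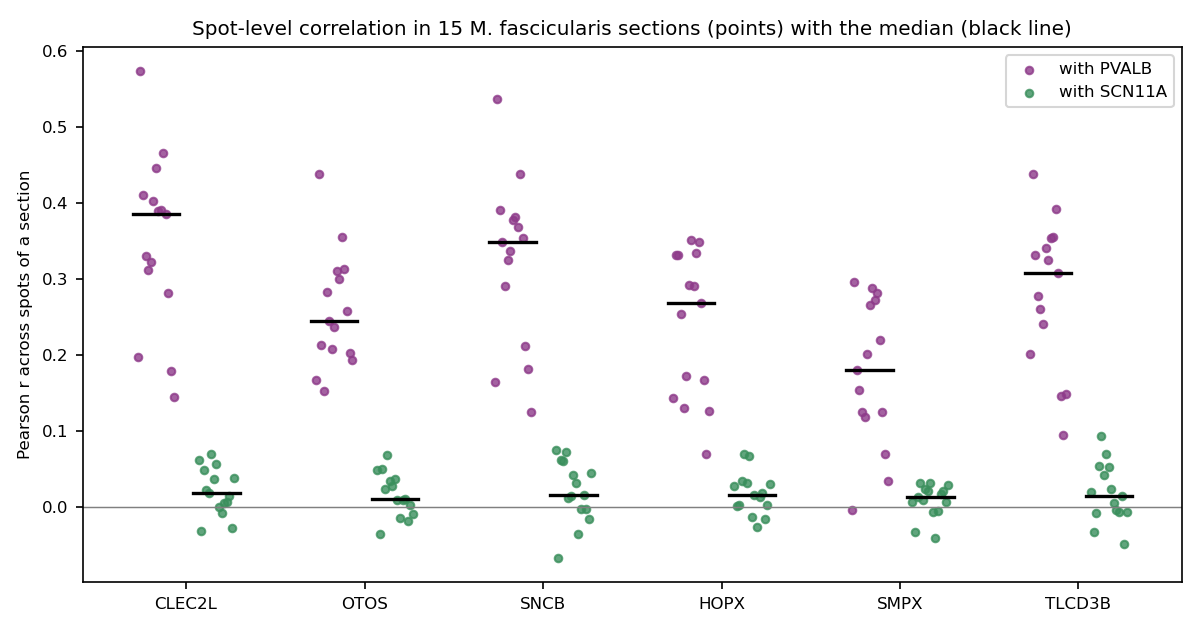
Pearson correlation across spots (vertical axis, no unit) of each gene with PVALB (purple) and with SCN11A (green); each point is 1 of 15 sections and black lines are medians. The medians with PVALB run from 0.18 to 0.39 and those with SCN11A from 0.010 to 0.018.

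The genes whose spot pattern was most like theirs came from a short set. Leaving the 6 genes themselves aside, PVALB was the closest of the 5451 genes compared for CLEC2L, OTOS, SNCB, HOPX and TLCD3B. This closeness follows from picking the genes in PVALB-rich spots and is not read as a result. VSNL1, a neuronal calcium sensor, was among the 3 closest for all 6 (median r from 0.19 for SMPX to 0.36 for CLEC2L, over 15 sections). The neurofilament genes NEFL and NEFH were among the 3 closest for CLEC2L (0.30) and OTOS (0.24), and the neuronal genes NSG1 and SNAP25 completed the lists of the others. Among the 6 genes, the 15 pairs had median r from 0.10 (SMPX with HOPX) to 0.35 (CLEC2L with SNCB).

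Spatial patterning was scored per section. Moran's I, which measures how alike neighbouring spots are, was taken from the authors' deposited tables with their adjusted p-values. Over the 16 M. fascicularis sections the authors' deposited table had OTOS past an adjusted p of 0.05 in 14, CLEC2L and SNCB in 13, TLCD3B in 11, HOPX in 10 and SMPX in 7, while 16.2% of all gene scores passed. The median I in the authors' deposited tables was 0.063 for CLEC2L and SNCB, 0.046 for OTOS, 0.035 for TLCD3B, 0.024 for HOPX and 0.017 for SMPX, beside 0.090 for PVALB and 0.11 for SCN11A. In the male batch 2 code the authors' deposited tables had OTOS past the threshold in 3 of 4 sections and TLCD3B in 0. CLEC2L, SNCB, HOPX and SMPX passed in 1 each, PVALB in 2 and SCN11A in 4, where 10.6% of all gene scores passed. Over the 16 sections, an I of at least 0.1 was also reached in 3 for CLEC2L, SNCB and TLCD3B, 1 for OTOS and HOPX and 0 for SMPX. PVALB reached it in 8 and SCN11A in 9. The share of all gene scores at this cut was not counted, so nothing is read from these numbers. In the sections labelled M. mulatta the authors' deposited tables scored OTOS, HOPX and SMPX in both sections, CLEC2L and TLCD3B in 1 and SNCB in 0, each on 16 UMIs or fewer, and 0 of these scores passed, where 3.04% of all gene scores did. Under the P. anubis label OTOS, SNCB, HOPX, SMPX and TLCD3B passed in 1 of 2 sections each and CLEC2L in 0, where 14.1% of gene scores did.

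The labelled species differed most for CLEC2L. Levels were set side by side as CPM over the 13089 symbols carried once in each feature set. CLEC2L was at 132 to 606 CPM over the 16 M. fascicularis sections (median 323), but had 3 and 0 UMIs in the sections labelled M. mulatta and 1 UMI in each section labelled P. anubis, 1 of which held 12595205 UMIs. In that deep section its level was 0.15 CPM, where 3 UMIs would stand for 0.44 CPM. The feature sets differ in their gene models, and their part in this was not tested.

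The other 5 genes were present in the sections labelled P. anubis. OTOS was at 278 and 227 CPM there (M. fascicularis median 146), SNCB at 165 and 324 CPM (206), HOPX at 321 and 257 CPM (101), SMPX at 42.8 and 52.0 CPM (37.6) and TLCD3B at 183 and 282 CPM (173). All but HOPX lay within the M. fascicularis range in both sections. Of the 6 genes only CLEC2L was at least 4-fold lower there without overlap of sections, as were 10.5% of 6544 shared genes, and 0 were at least 4-fold higher, as were 8.45%. SCN11A was also low in these sections, at 39.8 and 26.7 CPM against 170 to 1090 CPM in M. fascicularis.

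In the sections labelled M. mulatta PVALB was high and most of the 6 genes were low. PVALB had 426 and 173 UMIs, or 4386 and 1279 CPM, both above the M. fascicularis maximum of 1236 CPM. Beside it there were 4 and 3 UMIs of OTOS, 0 and 0 of SNCB, 14 and 16 of HOPX, 2 and 2 of SMPX and 1 and 0 of TLCD3B. HOPX was at 144 and 118 CPM, within the M. fascicularis range. The ratio of OTOS to PVALB was 0.0094 and 0.017, below the lowest M. fascicularis section (0.122), and that of HOPX was 0.033 and 0.092 (lowest 0.140). A count of 0 allows up to 30.9 and 22.2 CPM in these sections. CLEC2L, OTOS, SNCB and TLCD3B, 4 of the 6, were at least 4-fold lower than in M. fascicularis without overlap, as were 38.3% of 6564 shared genes, and PVALB was at least 4-fold higher, as were 11.2%. These libraries were the smallest, and the part of depth, of the feature set or of the crossed labels in these values was not tested.

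**Figure D5:**
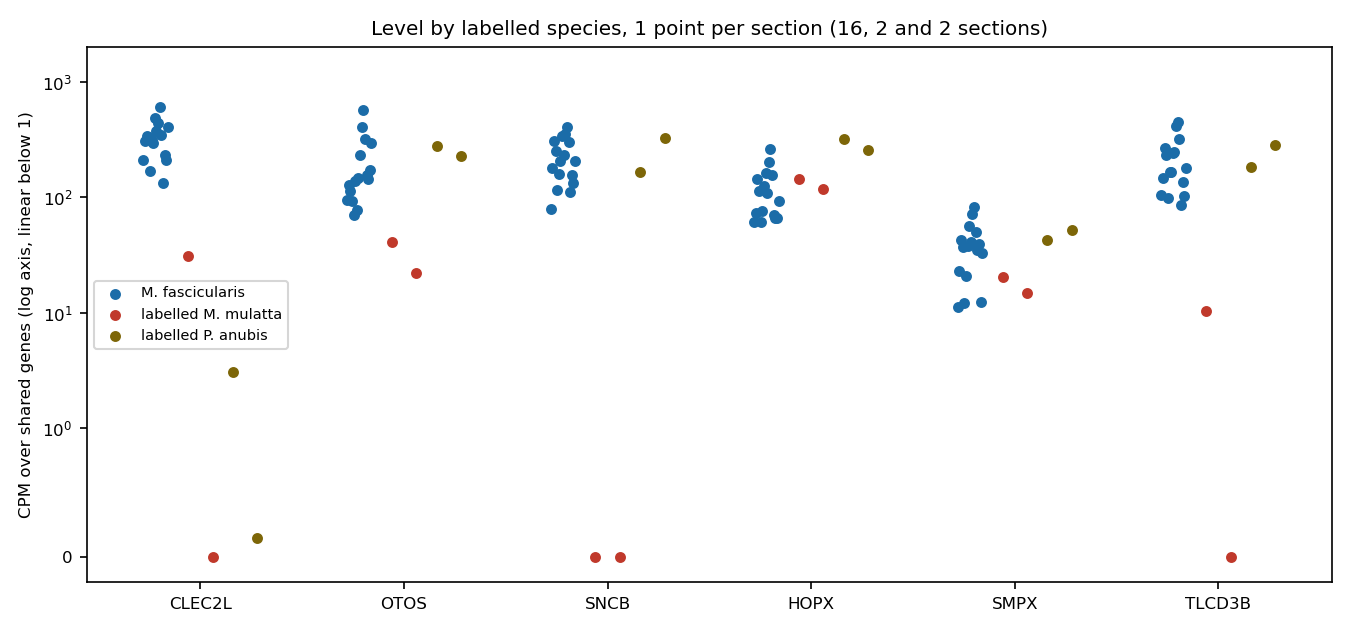
CPM over shared genes (vertical axis, log scale that is linear below 1) of each gene in the 16 M. fascicularis sections, the 2 sections labelled M. mulatta and the 2 labelled P. anubis; each point is a section. CLEC2L is at 132 CPM or more in M. fascicularis and at 3.06 and 0.15 CPM in the sections labelled P. anubis.

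The relation to PVALB was also measured in the sections labelled P. anubis. Neuronal spots with PVALB UMIs (571) against those without (259) had log2 ratios of 1.47 for OTOS, 1.13 for SNCB, 1.74 for HOPX, 1.98 for SMPX and 1.02 for TLCD3B, with no replicate. Across the 2532 spots of the deeper section these 5 genes had r with PVALB of 0.28 (SMPX) to 0.34 (SNCB), and with SCN11A of -0.041 to -0.013. CLEC2L had 0 UMIs in those neuronal spots and could not be compared. At 1000 UMIs a spot the shares of PVALB-only spots and of spots with neither marker lay closer. HOPX was in 19.7% of the former (95% exact Clopper-Pearson interval 13.6 to 27.1%) and 8.36% of the latter (5.48 to 12.1%). The intervals cover counting error only and take spots of the same sections as independent. The classes follow the contrast that chose the genes, so no difference is read from these shares. OTOS was in 17.01% and 9.70% of spots, SNCB in 22.4% and 15.4%, SMPX in 4.08% and 3.01% and TLCD3B in 14.3% and 11.4%.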

How the data were processed

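UMI counts per gene and spot were deposited by the authors, made with Space Ranger 2.0.0 (12 sections) or 2.1.0 (7 sections) and the build Mmul_10, per the submitters' processing notes and file headers, although the M. fascicularis features carry that species' own Ensembl identifiers. Moran's I (a score) and its p-value were deposited by the authors and only described. Members and lists were chosen with earlier results of these data known. Levels are CPM over all features. Counts were summed per title code, or per title code and spot class, and tested with edgeR 4.0.16 (TMM, filterByExpr, quasi-likelihood, threshold 0.05). Ratios used a pseudocount of 1 CPM. Floors for a count of 0 are 3 UMIs and, like depth, cover counting error only. Chi-square tests of the counts of 24 pairs of sections gave at least 3.93 per degree of freedom, so none was counted as a duplicate. Alternatives included DESeq2 1.42.0, other filters, thinning and left-out sections. Fits were tested on simulated data. The named genes were the 6 members, PVALB, SCN11A, the 3 genes most alike to each member and up to 4 genes per list by adjusted p. No sequences or coordinates are given. The clustering with Seurat that the series' design text names was not used here. The planned test between SCN11A classes is given as a description for the 6 genes, since its spots took part in choosing them.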

Additional observations from a re-analysis of the deposited data

Results flagged for a closer look

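OTOS in section 4 of the male batch 2 code, at 194 CPM, stood apart from the other 3 sections of that code, which were at 101, 92.4 and 110 CPM. The gap took up 0.83 of the range of the 4 sections. Of 36 groups of 4 values examined this way 1 stood apart, and chance alone gives about 1 in 20, or 5% of groups.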

How the results depend on the processing

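For batch, genes called moved from 364 to 1279 with no filter on low counts, 4345 when each section was a sample, 4448 when a replicate block for the section number was added and 656 without sections 1 and 2 of both batch 1 codes (chosen after seeing the data), and ranged from 115 to 942 when single sections were left out. OTOS became the 1 gene of the 6 called under DESeq2, no filter, sections as samples and the replicate block, and the number called ranged from 0 to 1 with single sections left out. For sex, 67 genes were called with no filter, 8 with sections as samples and 5 with the replicate block, and 0 of the 6. Section numbers did not clearly pair the sections: same-numbered sections of different codes had correlations of deviations from -0.21 to 0.52, and 10 of 24 were above 0.1. Sections of other numbers ranged from -0.65 to 0.62, with 23 of 72 above 0.1. This check does not cover the split of sections 1 and 2 from sections 3 and 4. Batch estimates near 0 changed sign: CLEC2L to 0.15 with sections as samples, 0.19 with the replicate block and 0.25 without sections 3 and 4 of batch 1 (chosen after seeing the data), and SNCB to 0.17, 0.28 and 0.61. HOPX went to -0.25 and TLCD3B to -0.15 without sections 1 and 2 of batch 1. With single sections left out CLEC2L ranged from -0.18 to 0.14, SNCB from -0.13 to 0.19 and HOPX from -0.014 to 0.29. For SCN11A, 543 genes called became 188 with DESeq2, 1 without the title code as a term, 2651 over all tissue spots, 1354 in the top 50% of spots, 127 in thinned spots and 273 without sections 3 and 4 of batch 1, and 264 to 631 with single title codes left out. Of the 6 genes, 0 were called without the title code and 3 in thinned spots, and 2 to 6 with single title codes left out. Nothing is read from these member counts, because the spots took part in choosing the genes. With at least 2 PVALB UMIs the log2 ratio was 1.59 for OTOS and 1.58 for HOPX. Median r with SCN11A at 1000 UMIs or more was -0.092 for CLEC2L, -0.067 for OTOS, -0.088 for SNCB, -0.069 for HOPX, -0.024 for SMPX and -0.070 for TLCD3B. The number of sections past the threshold with a Moran's I of at least 0.1 was 3 for CLEC2L, SNCB and TLCD3B, 1 for OTOS and HOPX and 0 for SMPX, with no share counted over all genes. The cause of these changes was not tested. Depth limits SMPX most, with 12 to 259 UMIs a section.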
